A study of Mus musculus with 8 samples.

Results

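The genes described here encode the histone chaperones that serve DNA replication, and 6 of them were followed: Chaf1a and Chaf1b, Nasp, Asf1a and Asf1b, and Hat1. When DNA is copied, new histones H3 and H4 pass along a chain of carrier proteins to the fork. NASP holds them in a soluble pool, HAT1 acetylates new H4, and ASF1 hands H3-H4 to CAF-1, the chromatin assembly factor that binds the sliding clamp PCNA and places histones on the new DNA. Chaf1a and Chaf1b encode the large and middle subunits of CAF-1. Many genes of S phase are targets of E2F transcription factors, which Rb family proteins hold in check in cells deprived of serum.

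Genes were taken by the platform's gene symbol, and each was read from its brightest probe with a detection p-value under 0.05 on at least 2 of the 8 arrays. The 6 genes had 8 probes, 3 of them for Nasp and 1 for each other gene, and 7 probes passed. All 6 genes were therefore among the 9430 named genes tested. Chaf1a, Chaf1b, Nasp, Asf1b and Hat1 were detected on 8 of 8 arrays. Asf1a, whose probe lay nearest to background, was detected on 7 of 8, and its detection p-value in proliferating WT clone 1 was 0.0677. The third Nasp probe was detected on 0 of 8 arrays and was left out.

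The study asked how a knock-in of L430Q in E2F3, a change made to weaken its binding to Rb, alters gene expression in mouse embryonic fibroblasts (MEFs). MEFs are primary fibroblasts grown from embryos, here C57BL/6 at 13.5 days. The WT MEFs were clones 1 and 16 and the E2F3LQ MEFs, which carry the knock-in, were clones 2 and 4. Each clone was hybridised once while proliferating in DMEM with 10% FBS and once after 72 h of serum starvation, which the labels give as 0% FBS, so that each of the 4 groups had 2 arrays. The E2F3LQ mice came from gene-targeted embryonic stem cells, and Cre had removed the selection cassette. Clones of unlike genotype differ in more than the allele, and the spread behind the p-values is only that between so few clones.

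Median intensities of the arrays lay between 108.4 and 127.3, and 47.2% to 48.3% of probes were detected on each. The number of arrays limits the precision, and 2 values against 2 cannot give an exact two-sided permutation p below 0.333. Proliferating E2F3LQ clone 2 stood apart: 685 features lay more than 1 log2 unit from the average of the remaining 3 proliferating arrays, where those 3 had 103 to 223. The changes of the 6 genes with starvation, and the differences between genotypes in proliferating cells, are therefore also given without it. Of 10 fibroblast markers 9 were measured, with summed signals of 24212 to 33986 over the 8 arrays. Markers of macrophages and blood cells were present as well, 10 of 14, among them Lyz2 and Laptm5. Of the markers of endothelium, epithelium, skeletal muscle and neural cells, 2 or 3 of each list were measured, with a highest sum of 353. The E2f3 probe does not check the genotype, since a base substitution leaves the transcript in place.

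By the probes used, the CAF-1 genes had the largest differences between the genotypes in starved cells. The ASF1 genes moved in opposite directions with serum. The stretches of 250 bases before the transcription start are therefore shown for the CAF-1 genes and the ASF1 genes. They are RefSeq sequences on GRCm38.p6, 5′ to 3′ on the strand of the gene, and all of these genes lie on the plus strand: Chaf1a at chr17:56040166-56040415, Chaf1b at chr16:93883651-93883900, Asf1a at chr10:53596711-53596960 and Asf1b at chr8:83955444-83955693. Capitals mark matches on either strand to an E2F core (TTCCCGC or TTGGCGC or TTCGCGC or TTGCCGC), to a CCAAT box (CCAAT) or to a CHR, the cell cycle genes homology region (TTTGAA).
Chaf1a: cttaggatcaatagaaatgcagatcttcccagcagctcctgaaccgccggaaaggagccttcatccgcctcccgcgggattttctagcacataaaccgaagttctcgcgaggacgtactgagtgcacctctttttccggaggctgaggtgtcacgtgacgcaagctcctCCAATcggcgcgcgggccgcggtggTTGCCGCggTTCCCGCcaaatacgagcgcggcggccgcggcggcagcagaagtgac
Chaf1b: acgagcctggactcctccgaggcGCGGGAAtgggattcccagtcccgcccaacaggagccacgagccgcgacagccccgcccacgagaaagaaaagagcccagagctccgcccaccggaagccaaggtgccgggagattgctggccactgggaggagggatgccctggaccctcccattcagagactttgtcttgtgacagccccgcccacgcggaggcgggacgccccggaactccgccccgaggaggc
Asf1a: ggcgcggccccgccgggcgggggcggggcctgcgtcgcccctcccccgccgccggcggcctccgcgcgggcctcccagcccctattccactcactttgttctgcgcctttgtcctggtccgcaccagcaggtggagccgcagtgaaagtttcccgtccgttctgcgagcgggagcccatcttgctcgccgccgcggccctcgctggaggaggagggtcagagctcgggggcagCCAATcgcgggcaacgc
Asf1b: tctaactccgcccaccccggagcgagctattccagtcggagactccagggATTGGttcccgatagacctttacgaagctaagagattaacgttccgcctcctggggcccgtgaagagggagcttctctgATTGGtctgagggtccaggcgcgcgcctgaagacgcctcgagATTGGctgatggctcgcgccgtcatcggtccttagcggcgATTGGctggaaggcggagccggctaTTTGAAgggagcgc

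Letters of an E2F core stood in the windows of both CAF-1 genes and in no other of the 6. Chaf1a held a pair of them, from -56 to -50 and from -47 to -41, beside a CCAAT box at -81, and Chaf1b held 1 on the other strand from -227 to -221. An E2F core was found in 7.89% of the 32851 promoter windows of this length, and 2 or more in 0.776%. Asf1b held 4 CCAAT boxes, all on the other strand, at -200, -121, -79 and -39, and a CHR at -14. At least 1 CCAAT box was found in 33.8% of windows, 4 or more in 0.840%, and a CHR in 16.0%. Asf1a held 1 CCAAT box, at -17, and no CHR. Hat1 held 1 CCAAT box, at -83. Nasp held a pair of CCAAT boxes, at -189 and -99, and a CHR at -130, though its window lies inside the span of the gene, which has a start further upstream. These are matches of letters and not measured sites.

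With serum starvation, the transcripts of CAF-1, Nasp and Asf1b fell, that of Asf1a rose, and that of Hat1 was lower without passing the test. Averaged over both genotypes, 4 of the 6 genes were called lower (adjusted p under 0.05, limma) where 11.5% of all 10214 features were, and 1 was called higher where 10.9% were. The median difference of the 6 was -0.76 on the log2 scale and that of all features 0.0011. On the normalised signal, each of the 5 genes that were lower after starvation was lower in 4 of 4 clones, and Asf1a was higher in 4 of 4. Before normalisation Asf1a was higher in only 2 of 4. The share of all features with the same sign in every clone was not counted. The count of 5 called genes (22.4% of all features in both directions) was 2 or 3 when any starved array or either proliferating WT array was left out, where 9.21% to 16.5% of all features were called. It was 5 without proliferating E2F3LQ clone 4 and 6 without proliferating E2F3LQ clone 2 (30% and 28.6% of all features). Without that clone 2 array the differences were -1.37 for Nasp, -1.12 for Chaf1b, -1.05 for Asf1b, -0.74 for Chaf1a and 0.46 for Asf1a, and without that of clone 4 they were -0.91, -0.63, -0.86, -0.55 and 0.57. All values are normalised log2 signals, and since each probe has its own response, levels are compared between arrays and never between genes. The arrays read RNA from a whole culture, so that fewer cells with a transcript and less of it per cell cannot be told apart.

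**Figure D1:**
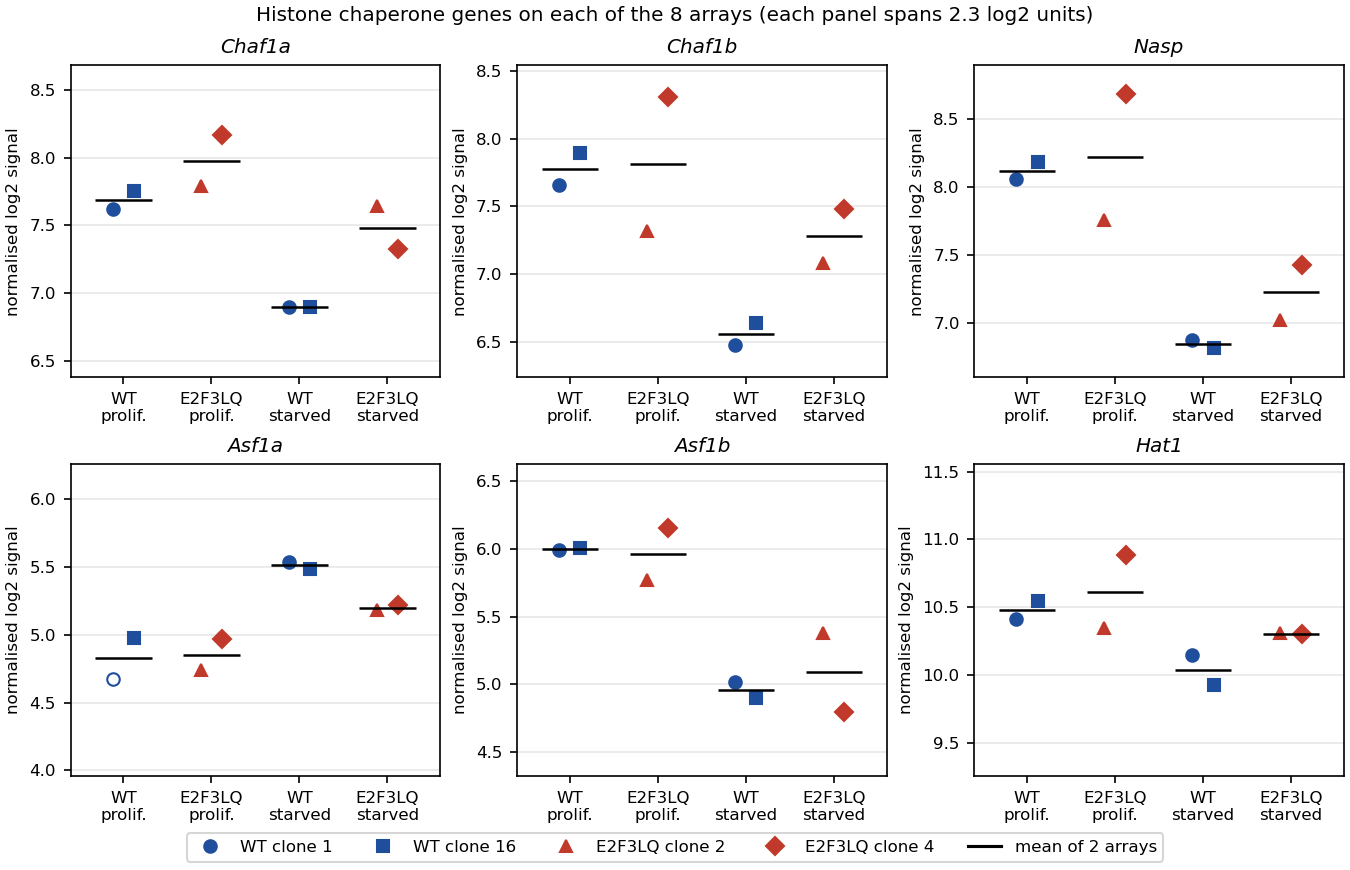
Normalised log2 signal (vertical axes, 2.3 units in each panel) of the 6 genes in the 4 groups, with 1 symbol per array and clone, a line for the mean of 2 arrays, and an open symbol where the probe was not detected. The 2 starved WT arrays are the lowest for Chaf1a, Chaf1b, Nasp and Hat1 and the highest for Asf1a.

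Chaf1a, the CAF-1 subunit that binds PCNA, had a signal of 7.62 in WT clone 1 and 7.76 in clone 16 while proliferating, and of 6.90 in both after starvation. In E2F3LQ clones 2 and 4 it was 7.79 and 8.17 while proliferating and 7.64 and 7.33 after starvation. The starved WT arrays were thus the lowest, and starved clone 2 lay just above proliferating WT clone 1. The difference between starved and proliferating cells was -0.64 (SE 0.13, adjusted p = 0.0160, n = 4 arrays on each side), and by the methods' t-test it was not called (adjusted p = 0.0804).

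Chaf1b, the WD-repeat subunit that joins CHAF1A, went from 7.66 and 7.89 to 6.48 and 6.64 in WT clones 1 and 16. Clone 2 of E2F3LQ gave 7.32 and then 7.08, and clone 4 gave 8.30 and then 7.48. Its difference over both genotypes was -0.87 (SE 0.23, adjusted p = 0.0325), with overlap, since starved clone 4 lay above proliferating clone 2. It was not called without background correction (-0.55, adjusted p = 0.0530), with no detection filter (0.0705) or by the methods' t-test (0.0908). Among the clones the change ran from -0.23 in clone 2 to -1.25 in WT clone 16.

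Nasp, the chaperone of soluble H3-H4, had the largest fall. Its signal fell from 8.06 to 6.87 in WT clone 1 and from 8.18 to 6.82 in WT clone 16. In E2F3LQ clones 2 and 4 it went from 7.76 and 8.68 to 7.02 and 7.43. On the probe used no starved array reached a proliferating one, which did not hold on a second Nasp probe described below. The difference was -1.14 (SE 0.21, adjusted p = 0.0108), a 2.20-fold lower signal. By the probes used, groups did not overlap in this direction for 3 of the 6 genes, Nasp, Asf1b and Hat1, and for 15.5% of all features.

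The paralogs Asf1a and Asf1b, which both carry H3-H4, moved apart. Asf1b, the form tied to proliferation, went from 5.99 to 5.02 in WT clone 1, from 6.01 to 4.90 in WT clone 16, from 5.77 to 5.38 in E2F3LQ clone 2 and from 6.15 to 4.80 in E2F3LQ clone 4. That is a difference of -0.96 (SE 0.16, adjusted p = 0.00808), with no overlap. The starved signals lay near background, with a detection p-value of 0.0338 in E2F3LQ clone 4. Without background correction the Asf1b difference was -0.31, smaller in size but still called (adjusted p = 0.0163). Asf1a went from 4.68 to 5.54 and from 4.98 to 5.48 in those WT clones, and from 4.74 to 5.18 and from 4.97 to 5.22 in those E2F3LQ clones. It was higher by 0.52 (SE 0.12, adjusted p = 0.0226) with no overlap, as were 15% of all features in this direction.

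The Asf1a result rests on a dim probe. Its intensities before correction lay between 119.1 and 133.5, little above the median of an array, and before normalisation only 2 of 4 clones, the WT ones, had the higher intensity after starvation. Without background correction the difference was 0.14 and with median scaling 0.42, and in neither was the gene called (adjusted p = 0.0742 and 0.0872).

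Hat1, the acetyltransferase of new H4, had the smallest difference. Proliferating WT clones 1 and 16 had 10.41 and 10.55 and the starved ones 10.15 and 9.93. E2F3LQ clones 2 and 4 had 10.35 and 10.88, then 10.31 and 10.30. Proliferating and starved arrays did not overlap, but the difference of -0.38 (SE 0.15) was not called (adjusted p = 0.108). Without proliferating E2F3LQ clone 2 it was -0.51 and was called (adjusted p = 0.0180), and without that of clone 4 it was -0.24 (adjusted p = 0.169).

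Markers of cycling cells fell in the same arrays. Of 7 such markers 3 were measured, Plk1, Cdk1 and Top2a, and all 3 were called lower after starvation (11.5% of all features). Their summed signal was 1199 to 1350 in proliferating WT arrays, 939 in proliferating E2F3LQ clone 2 and 1552 in clone 4, 393 to 457 in starved WT arrays and 521 to 580 in starved E2F3LQ arrays. Clone 4 was thus highest and clone 2 lowest among proliferating arrays, the order seen for Chaf1b, Nasp, Asf1b and Hat1. Markers of other cells changed as well. Of the 10 macrophage and blood markers 4 were called lower with starvation (11.5% of all features) and 0 higher (10.9%), with a median of -0.44. Their summed signal was 794 to 6840 in proliferating and 1350 to 4231 in starved arrays. Of the 9 fibroblast markers 2 were called lower and 4 higher. The part of cycling cells, or of any of these cells, in the results was not tested.

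Within WT cells, 3 of the 6 genes were called lower (4.3% of all features) and 0 higher (3.87%). The differences were -1.28 for Nasp (SE 0.30, adjusted p = 0.0464), -1.04 for Asf1b (SE 0.23, 0.0395) and -0.79 for Chaf1a (SE 0.19, 0.0486). Chaf1b fell short at -1.22 (SE 0.32, adjusted p = 0.0623), as did Asf1a at 0.68 (0.0522) and Hat1 at -0.44 (0.227). These calls lay near the threshold: with the clone as a block in the fit, Chaf1b and Nasp were called (adjusted p = 0.0268 and 0.0230) and Chaf1a and Asf1b were not (0.0827 and 0.0666). Without background correction 0 of the 6 were called (9.15% of all features, against 8.17% here), and with no detection filter 1 was, Asf1a (adjusted p = 0.0478, 4.18% of all features). Without a proliferating E2F3LQ array, of clone 2 or of clone 4, which enters here only through the common spread, 5 of 6 were called and 18% of all features, with Chaf1b at an adjusted p of 0.00588 and Asf1a at 0.0252. With a WT array left out, 0 of the 6 were called and 0% to 2% of all features.

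Within E2F3LQ cells the differences pointed the same way and 0 of 6 genes were called, where 4.6% of all features were. They were -1.0 for Nasp, -0.87 for Asf1b, -0.53 for Chaf1b, -0.50 for Chaf1a, -0.31 for Hat1 and 0.35 for Asf1a, with adjusted p from 0.0771 for Asf1b to 0.411 for Hat1. Before adjustment, 3 of them passed 0.05 as lower (Nasp, Asf1b and Chaf1a), and so did 11.8% of all features. Without proliferating clone 2, Nasp, Chaf1b and Asf1b were called, at -1.46, -1.02 and -1.06 (adjusted p = 0.00932, 0.0349 and 0.0415), and 9.27% of all features were. Without proliferating clone 4, 0 of the 6 were called and 12.1% of all features, and the values for Nasp, Chaf1b and Asf1b were -0.53, -0.04 and -0.68.

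**Figure D2:**
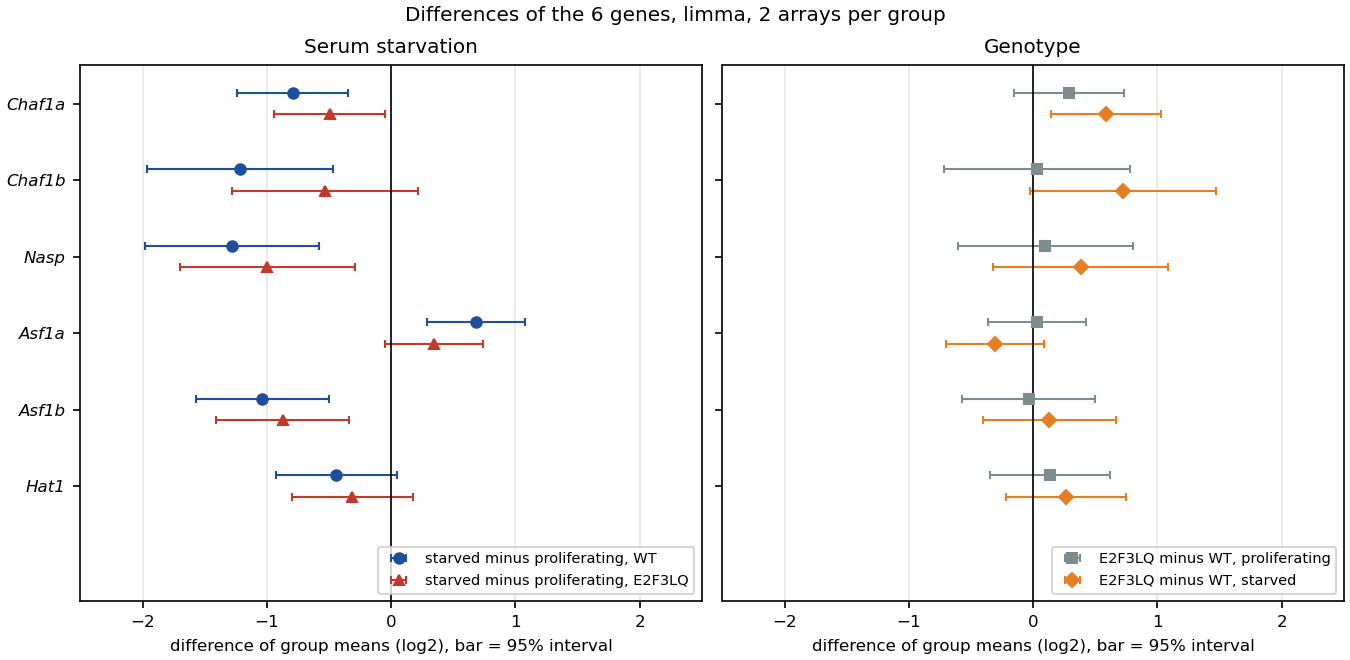
Differences of group means on the log2 scale (horizontal axes) for the 6 genes, starved minus proliferating in each genotype on the left and E2F3LQ minus WT in each serum condition on the right, with bars for limma's 95% interval. The negative differences with starvation were larger in WT for 5 genes, with intervals that overlap those of E2F3LQ.

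In starved cells, the CAF-1 genes were higher in E2F3LQ than in WT MEFs by 0.59 and 0.72 on the log2 scale without passing the test over all features. The 2 starved WT arrays had Chaf1a at 6.90, and the starved E2F3LQ arrays had 7.64 and 7.33. The difference was 0.59 (SE 0.19, 95% interval 0.14 to 1.03, unadjusted p = 0.0166, adjusted p = 1.00), a 1.5-fold higher signal. For Chaf1b, WT had 6.48 and 6.64 and E2F3LQ 7.08 and 7.48, a difference of 0.72 (SE 0.32, interval -0.03 to 1.47, unadjusted p = 0.0567, adjusted p = 1.00) or 1.65-fold. In each gene both mutant clones lay above both WT clones. With 1 starved array left out, the values ran from 0.43 to 0.74 for Chaf1a and from 0.52 to 0.92 for Chaf1b, and neither gene was called.

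Nasp was 0.38 higher in starved E2F3LQ cells (SE 0.30, interval -0.32 to 1.09) and Hat1 0.27 higher (SE 0.21, interval -0.22 to 0.75), again with no overlap. With clone 4 alone Nasp was 0.59 higher than the WT mean and with clone 2 alone 0.18. A second detected Nasp probe, not tested, gave a difference of 0.71, above that of Chaf1a (0.59) and close to that of Chaf1b (0.72). With 1 array left out Hat1 ran from 0.15 to 0.38. Asf1b differed by 0.13 (SE 0.23) with overlap, clone 2 lying above both WT arrays and clone 4 below them. Asf1a was 0.31 lower (-0.31, SE 0.17, interval -0.70 to 0.08), with 5.18 and 5.22 in E2F3LQ against 5.54 and 5.48 in WT.

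Over the set, 0 of 6 genes passed an adjusted p of 0.05 in limma, and so did 0% of all features. The methods' t-test with the same adjustment also called 0 of 6, here (0.0196% of all features) and in proliferating cells (0%). Within WT (0.00979%) and within E2F3LQ (0%) it called 0 of 6 as well. With so few features called by that test, these counts do not set the 6 genes apart. With an unadjusted p, 1 gene passed as higher, Chaf1a, and 0.959% of all features did. Groups did not overlap and E2F3LQ was higher for 4 genes (17% of all features), and lower for 1, Asf1a (16.9%). The median difference of the 6 genes was 0.32 and that of all features 0.0024. Chaf1b stood at the 99.7th percentile of all differences and Chaf1a at the 99.3rd.

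Other markers moved with genotype in the same arrays. The 3 cycling markers were higher in starved E2F3LQ cells, by 0.30 to 0.38 and with no overlap (17% of all features). Of the 10 macrophage and blood markers, 7 were lower in starved E2F3LQ arrays with no overlap (16.9% of all features). Their summed signal was 4207 to 4231 in WT and 1350 to 3291 in E2F3LQ. The part of these markers in the differences of the chaperone genes was not tested.

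**Figure D3:**
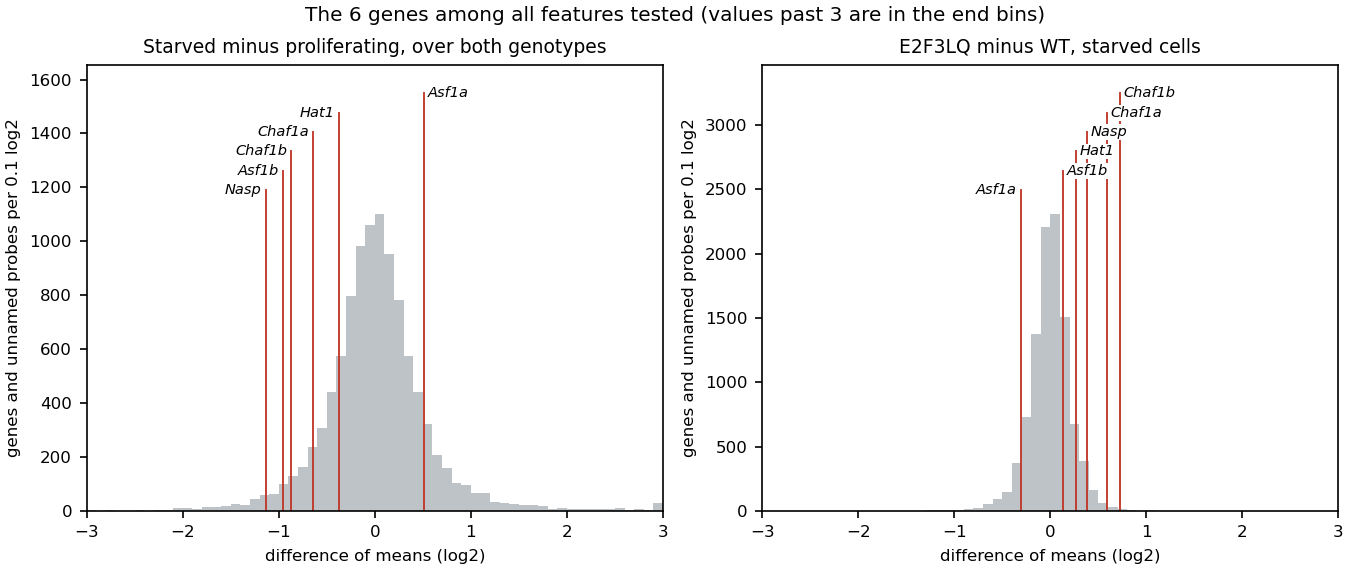
Number of features per 0.1 log2 unit (vertical axes) by their difference (horizontal axes), starved minus proliferating over both genotypes on the left and E2F3LQ minus WT in starved cells on the right, with red lines at the 6 genes. Nasp lies farthest left with starvation at -1.14, and Chaf1b lies farthest right with genotype at 0.72.

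In proliferating cells, the differences between genotypes were smaller and depended on the clone. Chaf1a was 0.29 higher in E2F3LQ cells (SE 0.19, interval -0.16 to 0.73), with no overlap, as were 9.54% of all features in this direction. The other 5 lay between -0.04 for Asf1b and 0.14 for Hat1, with overlap, and the interval for Chaf1b was -0.71 to 0.78. None of the 6 reached an adjusted p of 0.05 (0% of all features, adjusted p of 0.999 for each gene) or an unadjusted one (0 of 6, and 2.83% of all features). Without clone 4, by contrast, 3.97% of all features were called, and still 0 of the 6. Clone 4 was above the WT mean by 0.53 for Chaf1b and 0.56 for Nasp, and clone 2 differed from it by -0.46 and -0.36. Without clone 2 the differences were 0.53 for Chaf1b, 0.56 for Nasp, 0.48 for Chaf1a and 0.41 for Hat1, each with an adjusted p of 0.999. Without clone 4 they were -0.46, -0.36, 0.10 and -0.13, with adjusted p from 0.328 to 0.826. The markers of macrophages and blood differed here too. Of the 10, 5 were lower in E2F3LQ at an unadjusted p under 0.05 (1.7% of all features), with a median of -1.25. Their summed signal was 794 in clone 4, 5225 in clone 2 and 3054 to 6840 in WT. Their part was not tested.

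Whether the genotype difference was larger in starved than in proliferating cells was tested directly. This difference of differences was 0.69 for Chaf1b (SE 0.45, interval -0.37 to 1.75), 0.30 for Chaf1a (SE 0.27), 0.28 for Nasp (SE 0.42), 0.17 for Asf1b, 0.13 for Hat1 and -0.34 for Asf1a. The adjusted p was 1.00 for each, and 0 of 6 genes and 0% of all features were called. Before adjustment, 0 of 6 genes and 1.53% of all features passed 0.05. The intervals were wide, and without proliferating clone 2 the value was 0.19 for Chaf1b and 0.11 for Chaf1a and turned negative for Nasp, at -0.18. Without proliferating clone 4 it was 1.18 for Chaf1b (unadjusted p = 0.00449, adjusted p = 0.127), 0.49 for Chaf1a and 0.75 for Nasp, with 0 of 6 genes and 1.42% of all features called.

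Partners of the chaperones were read from fixed lists. Rbbp7, a histone-binding protein that works with HAT1, went from 10.79 and 10.55 in WT clones 1 and 16 to 9.06 and 9.29, and from 10.27 and 10.71 in E2F3LQ clones 2 and 4 to 9.48 and 9.55. The fall was -1.24 (SE 0.14, adjusted p = 0.00235), the largest among 17 other histone chaperones measured of 27. Of these, 4 were called lower (11.5% of all features) and 0 higher (10.9%). The others called lower were Anp32a, which binds histones, Vps72, which serves the exchange of H2A.Z, and Nap1l1, a carrier of H2A-H2B. The median of the 17 was -0.28. In starved cells Rbbp7 differed between the genotypes by 0.34 (SE 0.20) with no overlap, and the list's median was 0.05. Rbbp4, the third CAF-1 subunit, was not analysed here, since no probe carried its symbol. Of 10 genes of histone mRNA supply only 2 were measured, with 0 called, and the probe of Slbp, the stem-loop binding protein of histone mRNA, was detected on 0 arrays.

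Of 13 partners of CAF-1 at the fork and in heterochromatin, 11 were measured. With starvation 2 of them were called lower, as were 11.5% of all features. They were Blm, a helicase, at -1.02 (SE 0.17, adjusted p = 0.00808) and Cbx5, the heterochromatin protein HP1 alpha, at -0.89 (SE 0.18, 0.0161). Between genotypes 0 of the 11 were called, where 0% of all features were. The Pcna probe was detected on only 2 arrays, with signals of 4.32 to 4.75, so the clamp's transcript could not be judged from it.

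The licensing factors, which load the replicative helicase, include many E2F targets. With starvation 8 of 19 were called lower (11.5% of all features) and 1 higher (10.9%), with a median of -0.45. Mcm2, the helicase subunit that itself binds H3-H4, fell from 7.62 to 6.52 in WT clone 1, from 7.43 to 6.61 in WT clone 16, from 7.59 to 7.35 in E2F3LQ clone 2 and from 8.21 to 7.27 in E2F3LQ clone 4. In starved cells it was 0.74 higher in E2F3LQ (SE 0.22, unadjusted p = 0.0112, adjusted p = 1.00), close to the values of Chaf1a and Chaf1b. Of the 19, 18 had a positive difference there (50.6% of all features), 15 with no overlap (17% of all features). Their median was 0.33, with 0 called (0% of all features).

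E2f3 itself had lower signals on the E2F3LQ arrays. Its signal was 7.06 and 6.97 in proliferating WT and 6.74 and 6.60 in proliferating E2F3LQ, and 6.54 and 6.65 against 6.14 and 6.01 after starvation, each pair in the order of clones 1 and 16 or 2 and 4. The difference was -0.52 in starved cells (SE 0.15, unadjusted p = 0.00954, adjusted p = 1.00) and -0.35 in proliferating cells (SE 0.15, adjusted p = 0.999). Among the 11 of 13 E2F and Rb family genes measured, 0 were called between genotypes, where 0% of all features were.

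The genes whose levels were most like the mean of Chaf1a and Chaf1b over the 8 arrays were, among 9424 named genes, Chek2, Bcat2, Mcm7, Shcbp1, Mcm5, Fen1, Donson, Rpa1, Mcm2 and Tk1, with Pearson's r from 0.985 to 0.967. Of these, 3 are in the licensing list, and Fen1, Rpa1 and Tk1 encode a flap nuclease of the fork, a subunit of the single-strand binding protein and thymidine kinase. For Nasp the 3 most alike were Jpt2, Cbx5 and Commd10, for Asf1b they were Bag1, Mid1ip1 and Topors, for Hat1 Cenpm, Rfc5 and Sgo1, and for Asf1a Rgma, Stimate and Terf2. Within the set, Chaf1b and Nasp were most alike (r = 0.956), and Asf1a ran against each of the other 5 (r from -0.61 to -0.82). These are descriptions over 8 arrays that share 4 clones and the serum contrast.

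**Figure D4:**
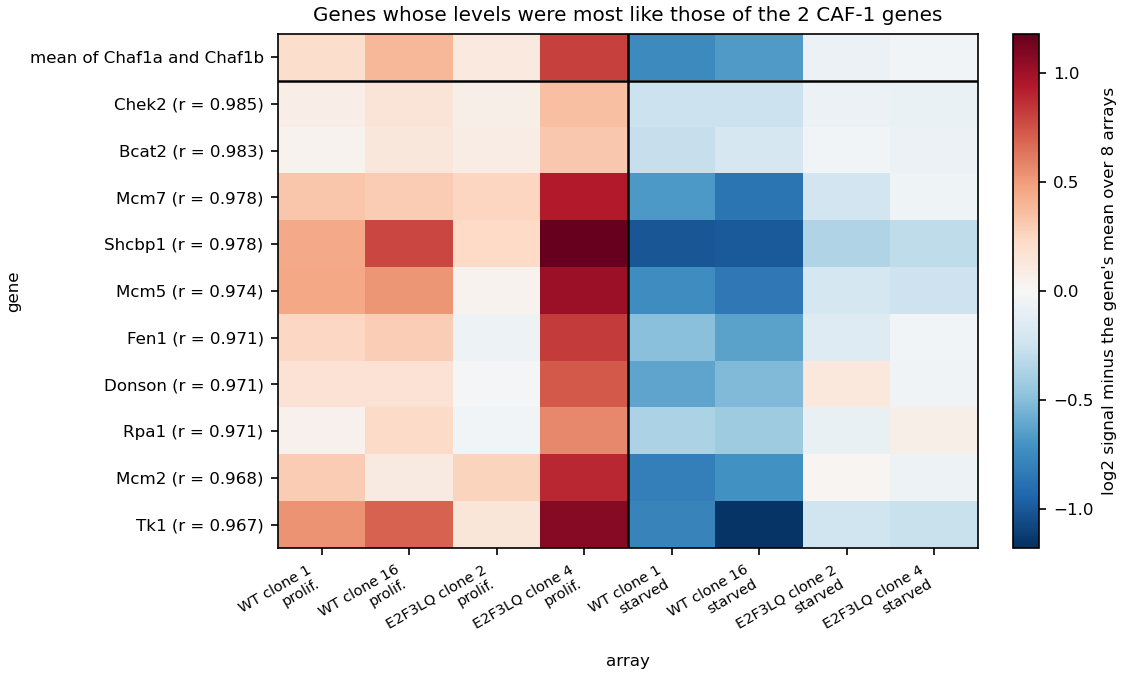
Log2 signal minus the gene's own mean over 8 arrays (colour, red above and blue below) for the mean of Chaf1a and Chaf1b and the 10 genes with the highest Pearson's r to it, by array. The starved WT arrays are lowest and proliferating E2F3LQ clone 4 is highest for each of the 10. Both starved E2F3LQ arrays lie below every proliferating array for 7 of 10, the exceptions being Fen1, Donson and Rpa1. The mean of Chaf1a and Chaf1b has all of this order itself. Since the 10 genes were chosen for likeness to it, their shared order follows largely from the choice.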

How the data were processed

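The authors deposited, for each probe, a signal intensity without visible normalisation and a detection p-value against control beads. They also deposited processed intensity values (array medians 8.4 to 8.5, lowest -14.4) with no settings stated. RNA had been labelled as biotinylated cRNA for Illumina arrays and read with GenomeStudio. The methods name a WG-6 array, and the file holds 25697 probes, fewer than that name would give. All per-sample columns were mapped to the 8 arrays by their labels.

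Intensities were normalised with neqc of limma 3.58.1 (offset 16) in R 4.3.3. Probes were named from the platform annotation (23978 with 1 symbol, 1719 with none). A detection p-value under 0.05 on 2 or more arrays kept 13666 probes, and the brightest per gene gave 10214 features (784 unnamed). A model of 4 group means (lmFit, eBayes, 4 residual and 3.27 prior degrees of freedom) gave each contrast, and p-values were adjusted by Benjamini-Hochberg over all features and called under 0.05. The script was tested on simulated data. Promoters came from RefSeq.

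Clones were measured in both serum conditions, which pairs these arrays by the labels. Deviations of a clone's 2 arrays from their group means correlated at 0.0906 in WT and 0.291 in E2F3LQ, and clone entered as a block in an alternative fit. Other alternatives were further background corrections, scalings, filters, the methods' t-test, a variance trend, other thresholds, and leaving out arrays or clones.

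The 6 genes and all lists (other chaperones, histone supply, histones, CAF-1 partners, licensing, E2F and Rb families, cell markers) were chosen with earlier results of these data known. Named genes were the 6, fixed partners, list genes of smallest p, and the most correlated genes. Columns of other samples numbered 0. Figures used matplotlib 3.10.9.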

Additional observations from a re-analysis of the deposited data

Results flagged for a closer look

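A second Nasp probe passed the detection filter on 8 of 8 arrays and entered no comparison, since the brighter probe stood for the gene. Its log2 signal was lower in starved than in proliferating cells, by -0.97 over both genotypes, against -1.14 for the probe used. Group means were 7.96 ± 0.11 (SD, n = 2) in proliferating WT, 8.07 ± 0.66 in proliferating E2F3LQ, 6.69 ± 0.21 in starved WT and 7.41 ± 0.28 in starved E2F3LQ. Starved E2F3LQ clone 4 (7.60684) lay just above proliferating clone 2 (7.60665) on this probe, so starved and proliferating arrays overlapped. In starved cells E2F3LQ was higher by 0.71 on this probe and by 0.38 on the probe used. No test was made on this probe alone.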

How the results depend on the processing

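Over both genotypes, the number of the 6 genes called with starvation was 5 (22.4% of all features). It was 3 without background correction (22.2%) and 3 with the methods' t-test (23.3%). That number also moved when an array or a clone was left out. It was 0 without either WT clone, which leaves 1 WT array per condition and assumes that it varies like the others, and where 0.0392% (without clone 1) and 1.18% (without clone 16) of all features were called, against 22.4%. It was 2 without starved WT clone 1 or 16 or starved E2F3LQ clone 4, 3 without starved E2F3LQ clone 2 or proliferating WT clone 1 or 16, and 6 without proliferating E2F3LQ clone 2. In WT, 3 were called (8.17% of all features), against 0 without background correction (9.15%) or with the methods' t-test (0.00979%). The count was 1 with the authors' processed values (7.08%) or no detection filter (4.18%). It was 5 with only the arrays compared (16.8%) or the clone as a random block (10.7%). An adjusted p under 0.1 (15.2%) or an unadjusted p under 0.05 (26.3%) also gave 5. The count moved as well when an array or clone was left out. In E2F3LQ, 0 were called (4.6% of all features), against 1 at an adjusted p under 0.1 (10.7%) and 3 at an unadjusted p under 0.05 (23.9%). This count too moved with an array or clone left out. For genotype in starved cells 0 were called (0% of all features), and 1 at an unadjusted p under 0.05 (2.21%). With the clone as a replicate block 5 genes were called over both genotypes (21.9% of all features) and 2 in WT (7.77%). With the replicate number as a block 0 were called between genotypes (0%). Same-numbered arrays of the genotypes share only that number. Their deviations correlated at 0.473 (proliferating) and 0.184 (starved), and with this block the unadjusted p of Chaf1b in starved cells was 0.0164, against 0.0567. The sign of the called differences with starvation held in every alternative run.

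Genotype differences changed sign as follows. In proliferating cells Asf1a was -0.0057 with cyclic loess, and Asf1b was 0.15 with median scaling and 0.0091 with cyclic loess. With an array or clone left out, values in proliferating cells ran from -0.46 to 0.53 for Chaf1b, -0.36 to 0.56 for Nasp, -0.12 to 0.18 for Asf1a, -0.23 to 0.15 for Asf1b and -0.13 to 0.41 for Hat1, and in starved cells from -0.16 to 0.42 for Asf1b. The difference of differences ran from -0.049 to 0.64 for Chaf1a, -0.18 to 0.75 for Nasp, -0.31 to 0.64 for Asf1b and -0.14 to 0.40 for Hat1. For Chaf1b, which kept its sign, it ran from 0.19 to 1.18. Causes were not tested. Median scaling moved the median of all features by -0.13 with starvation and 0.15 with genotype in proliferating cells. Signal over background limits Asf1a, Asf1b and Pcna.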

Other observations

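Of 65 histone genes on the list, 47 were measured. The list holds H2A, H2B and other histones besides H3 and H4, the histones that the 6 genes were described as serving. With starvation over both genotypes 13 were called lower (11.5% of all features) and 8 higher (10.9%). The classes were of unlike size. Of 14 H2A cluster genes 9 were called lower and 0 higher, among them H2ac12 at -2.04 (SE 0.24, adjusted p = 0.00244). Of 10 H2B cluster genes 0 were called lower and 4 higher, among them H2bc15 at 1.09 (SE 0.14, adjusted p = 0.00296). Of 6 H3 cluster genes 0 were called lower and 1 higher, and of 8 H4 cluster genes 0 and 2. The variants H2ax and H2az1 were lower by -0.98 and -1.15. Between genotypes 0 histone genes were called, where 0% of all features were. The median difference in starved cells was -0.22, while that of the 6 chaperone genes was 0.32. Copies of cluster histones are nearly identical in sequence, so single probes may read several of them, and most such transcripts lack the poly(A) tail from which cRNA is usually primed.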
